A study of Mus musculus with 6 samples.

Results

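Activated naive CD4 T cells were compared with memory CD4 T cells of the mouse. The comparison used 4 of the 6 arrays of the series and covered 14477 of the 18193 genes that carry a name in the array annotation, those whose signal reached the floor on at least 1 of the 4 arrays. For a gene with several probe sets, the brightest by mean log2 signal over the 6 arrays was used, and signals under the floor of 47.6, the pooled 40th percentile, were raised to it. A gene was counted as higher or lower where activated and memory cells differed at least 2-fold in the same direction in both genotypes.

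All mice were C57BL/6 and 10 to 11 weeks old. Every mouse carried loxP-flanked alleles of Fur, the gene called Furin on the array, so the group called WT here is Fur flox/flox without Cre. The Furin cKO (conditional knockout) group carried Cre in addition, driven by Cd4 elements, which act in developing thymocytes and so also reach cells that later lose CD4. The activated cells were sorted as CD4+ CD62L+ CD44- naive cells and cultured for 2 days with anti-CD3 and anti-CD28, both plate-bound at 5 µg/ml. The memory cells were sorted as CD4+ CD62L- CD44+ cells and used fresh, so memory cells that carry CD62L were left out. Fresh CD4+ CD25+ FoxP3+ regulatory cells make up the remaining 2 arrays. These entered the statistical model, the floor and the choice of probe set but are not compared in the folds. There was 1 array for each population and genotype, the labels do not say how many animals stand behind an array, and unstimulated naive cells were not analysed here. Culture, activation and cell type therefore cannot be told apart in any value below.

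A naive T cell that meets antigen with costimulation leaves rest, enlarges, and starts to divide after about a day. It switches on interleukin 2, MYC and nutrient transporters, and builds ribosomes, nucleotides and membranes. Memory cells are the resting survivors of earlier responses. They depend on interleukin 7 and interleukin 15, carry chemokine receptors and integrins that send them into tissues, and keep effector genes open for rapid use.

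The arrays of both populations differed in technical measures. On the activated arrays 49.4% and 49.8% of probe sets reached the floor, against 62.6% and 65.2% on the memory arrays, WT first here and in all pairs of values below. The hybridisation control bioB had mean signals of 753.8 and 852.3 against 4930 and 4078. For beta-actin the ratio of 3′ to 5′ signal was 1.22 and 1.24 against 1.93 and 1.56. The highest signal of any probe set was 27441 and 29062 against 103666 and 96266. How far this narrower range of the activated arrays shapes the folds of bright genes was not tested. Population and hybridisation conditions cannot be told apart. The T cell markers Cd3e, Cd3d, Cd3g, Cd4, Cd28 and Cd5 were above the floor on all 6 arrays.

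Furin and Foxp3 went against some labels. Furin, the targeted gene, read 515.8 and 468.3 in activated and 647.4 and 2203 in memory cells, and 547.2 and 410.0 on the regulatory arrays, so the memory array labelled Furin cKO was the highest and not the lowest of the 4. Where the probe set lies in Furin is not known here, and whether the deleted part holds it was not tested. Foxp3, which marks regulatory T cells, read 1358 and 1116 on the memory arrays and only 50.4 and 33.8 on the arrays labelled as regulatory, where Ikzf2, another regulatory T cell gene, read 13901 and 15968 against 9419 and 8213 on the memory arrays. Il2ra and Ctla4, also high in regulatory T cells, went with the labels, at 4277 and 3702 and 11033 and 10619 on the regulatory arrays against 1190.3 and 626.8 and 3339.9 and 2934 on the memory arrays. Every fold below uses the memory arrays as labelled; whether their Foxp3 signal comes from the cells, the probe set or a wrong label was not tested. WT and Furin cKO below are the labels of the arrays, and no direction is drawn from the genotype. The folds below compare no regulatory array, but these arrays entered the choice of probe set and the floor. They also entered the limma values of single genes and lists, and only the total counts from the model are given with and without them.

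Memory and activated cells differed in a large share of the transcriptome. Of the 14477 measured genes, 1590 (11.0%) were at least 2-fold higher in activated cells in both genotypes and 2692 (18.6%) at least 2-fold lower. At 8-fold or more these numbers were 85 and 287, and at 32-fold or more 9 and 39. Among the genes lower in activated cells, 593 were below the floor on both activated arrays, so their folds are lower bounds, whereas 68 of the higher genes were below the floor on both memory arrays. In the dimmest of 3 equal classes by mean signal, 1.28% of genes were higher and 10.6% lower; in the brightest class 19.9% were higher and 14.4% lower. The median log2 fold over all measured genes was -0.30, and -0.13 over the 9619 genes above the floor on all 4 arrays. Quantile normalization moved the median over all measured genes from -0.30 to -0.04. It changed the split from 1590 higher and 2692 lower genes (37.1% higher) to 1894 and 1788 (51.4% higher), so fold changes near 2-fold depend on the scaling.

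The WT and Furin cKO pairs share no array and repeated each other in most of these genes. In the WT pair 2052 genes were at least 2-fold higher and in the Furin cKO pair 1946, and the 1590 common to both make up 77.5% and 81.7% of them. For lower genes the numbers were 3629 and 3736, with 2692 in common (74.2% and 72.1%). Across the 14477 genes, which are not independent replicates, the log2 folds of both pairs correlated at 0.887, and at 0.924 across the 9619 genes above the floor. Only 6 genes were at least 2-fold in opposite directions.

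A linear model with population and genotype (limma, all 6 arrays, Benjamini-Hochberg adjusted p under 0.05) called 2743 of 15811 genes higher (17.3%) and 4260 lower (26.9%) in activated cells. Its p-values measure how far the population difference varied between the genotypes, not between animals. With the 4 arrays of the comparison alone it called 2569 and 4300. The counts depended on every array: 455 and 922 genes were called without the activated WT array, 781 and 1405 without the activated Furin cKO array, 1078 and 1922 without the memory WT array, and 1249 and 2085 without the memory Furin cKO array.

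**Figure D1:**
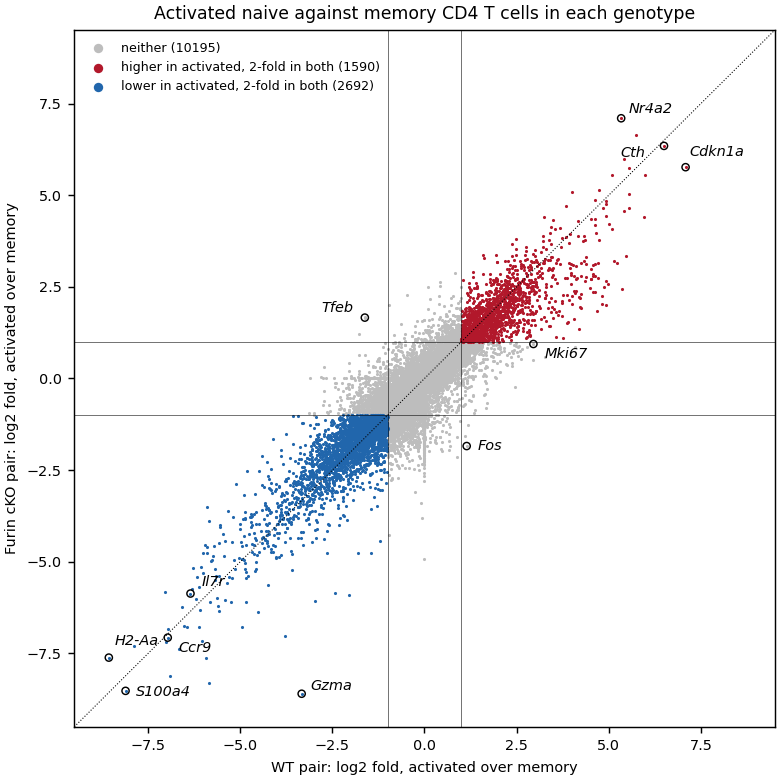
Each point is 1 of 14477 genes; the x axis is the log2 fold of activated over memory cells in the WT pair and the y axis the same in the Furin cKO pair, with lines at 2-fold and the diagonal dotted. Red and blue points are the 1590 higher and 2692 lower genes, most of which lie near the diagonal, while Gzma and Mki67 lie far from it and Fos and Tfeb fall in opposite directions.

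Of 5 marker genes given for this contrast, 4 separated the populations in both genotypes: a receptor, a calcium-binding protein and a gut-homing receptor on the memory side and a metabolic enzyme on the activated side. Il7r, the alpha chain of the receptor for the survival cytokine interleukin 7, read 225.4 and 372.2 in activated and 18389 and 21717 in memory cells. It was 81.6-fold and 58.4-fold lower in activated cells, a log2 difference of -6.11 ± 0.18 (limma, SE). S100a4, a calcium-binding protein of motile cells, read 19.7 and 22.1 in activated and 13169 and 17493 in memory cells, and was at least 277-fold and 368-fold lower. Ccr9, which guides T cells to the small intestine, read 1.4 and 1.3 in activated and 5956 and 6393 in memory cells and was at least 125-fold and 134-fold lower. Its log2 difference of -7.02 is a bound set by the floor, and the mean over its probe sets gave -3.74. Cth, the cystathionine gamma-lyase that makes cysteine, read 4305 and 3869.9 in activated and 5.9 and 6.6 in memory cells. It was at least 90.5-fold and 81.3-fold higher in activated cells, and read 55.3 and 6.8 on the regulatory arrays. On the regulatory arrays, also from fresh cells, Il7r read 7316.9 and 9034.1, S100a4 11252 and 11715 and Ccr9 1170 and 941.3. High signal of the memory-side markers was thus not confined to the memory arrays. In each of the 4 genes that separated the populations, every activated array lay on the other side of every memory array. Since they were given as markers of this contrast, the values are a description without a test.

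Mki67, the proliferation marker, behaved otherwise. It read 9774 and 10102 in activated and 1259.9 and 5261 in memory cells, so that the activated arrays were alike and the memory arrays far apart. The fold was 7.76-fold and 1.92-fold, which is not 2-fold in both genotypes. The log2 difference was 1.95 ± 0.51 (limma, SE), and 1.17 to 2.73 when each of the 4 arrays was left out in turn. On the regulatory arrays Mki67 read 1074 and 2396.

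**Figure D2:**
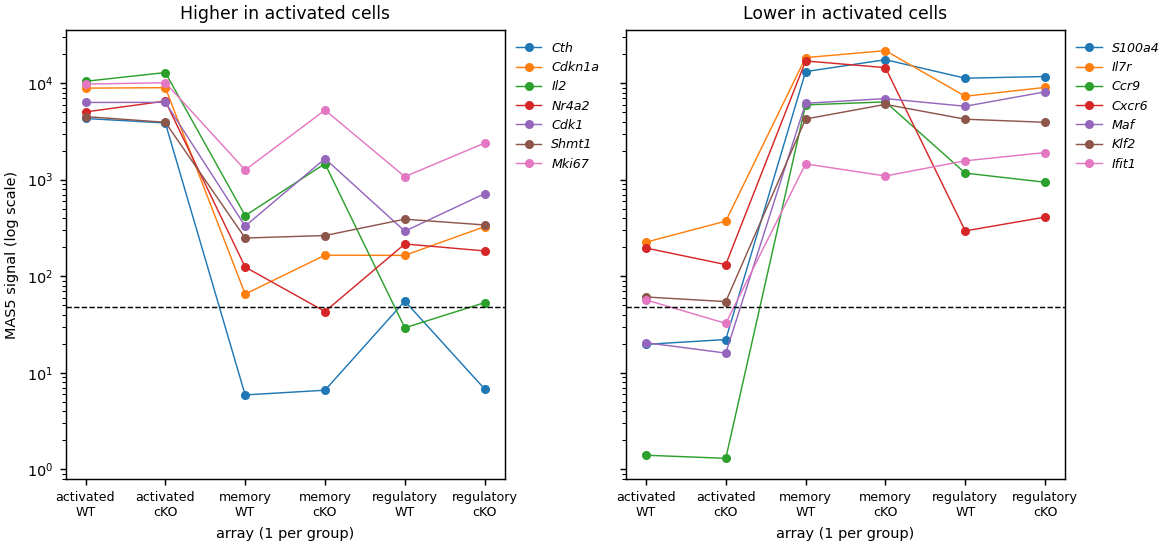
MAS5 signal on a log scale for 7 genes higher (left) and 7 genes lower (right) in activated cells on the 6 arrays, with lines joining the values of a gene and the floor dashed. Both activated arrays lie above both memory arrays for all 7 genes on the left and below them for all 7 on the right, and Mki67, Cdk1 and Il2 differ most between the memory arrays among the genes on the left.

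Genes of DNA replication and of mitosis were higher in activated cells, and mitotic genes varied between the memory arrays. Replication genes had 23 of 32 measured members at least 2-fold higher in both genotypes and 0 lower, against 11.0% and 18.6% of all measured genes, with a median log2 fold of 1.98; limma called 27 higher and 0 lower. Mitotic genes had 24 of 29 higher and 0 lower, with a median of 2.70; limma called 27 higher and 0 lower. The lists of genes, like the comparison itself, were drawn up with earlier results of these data known, and their counts are descriptions. Every 2-fold list count here and below stands against the same shares of all measured genes, 11.0% higher and 18.6% lower. The limma counts of lists stand against the limma shares of all 15811 tested genes, 17.3% higher and 26.9% lower. Of 850 genes listed, 785 were in the annotation and 766 were measured, and a member measured in 1 population alone had to differ.

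The largest folds among the replication genes included those of genes that start S phase. Ccne2 and Ccne1 encode the E cyclins that drive entry into S phase. Ccne2 read 2449.9 and 2895 in activated and 117.6 and 292.7 in memory cells, and Ccne1 6268 and 5634 against 411.2 and 635.5. Mcm10, which helps to load the polymerases, was 23.9-fold and 8.57-fold higher, and Cdc6, which loads the replicative helicase onto origins, 24.9-fold and 6.89-fold. The ribonucleotide reductase subunits that make deoxynucleotides differed from each other. Rrm1 read 14177 and 12659 in activated and 900.2 and 1724 in memory cells, while Rrm2 read 13866 and 13965 in activated and 1029 and 6528 in memory cells and was 13.5-fold and 2.14-fold higher. The flap nuclease gene Fen1 was 8.31-fold and 7.40-fold higher. Several abundant members did not pass 2-fold in both pairs: Mcm6 read 7440.2 and 6627 in activated and 4418 and 5662 in memory cells, Cdt1 6155 and 6324 against 4108 and 6464 and the sliding clamp gene Pcna 20736 and 21711 against 13888 and 25967. Pcna was thus lower in the activated cells of the Furin cKO pair and higher in those of the WT pair.

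Mitotic genes were high and even on both activated arrays. Cdk1, the kinase that drives mitosis, read 6311 and 6326 in activated and 330.4 and 1653 in memory cells. Cdc20, an activator of the anaphase-promoting complex, read 10960.0 and 11822 in activated and 478.2 and 1785 in memory cells and was 22.9-fold and 6.62-fold higher. The checkpoint kinase gene Bub1 was 31.8-fold and 5.96-fold higher, the Aurora kinase gene Aurkb 29.5-fold and 5.62-fold and the spindle gene Tpx2 22.9-fold and 6.51-fold. In each gene just named the WT fold was the larger one and the memory Furin cKO array read higher than the memory WT array. Birc5, which encodes survivin, read 2606 and 2558 in activated and 472.8 and 2981 in memory cells, and Ccnb2, a B cyclin, 2080.4 and 2173 against 499.9 and 1915; neither differed 2-fold in the Furin cKO pair. The median log2 fold of the mitotic list was 3.52 in the WT pair and 1.76 in the Furin cKO pair.

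The stretches just before the start sites of these genes are shown because genes of both lists move together and carry motifs known for cell cycle control. They are the 250 bases before the annotated start from RefSeq (GRCm38.p6), 5′ to 3′ on the gene's strand, with matches in capitals. The motifs searched on both strands were the CCAAT box (CCAAT), the cell cycle homology region (CHR, TTTGAA) and an E2F site (TTTNNCGC). Mki67 (chr7:135716380-135716629, minus strand) holds 3 CCAAT boxes that begin 188, 166 and 141 bases before the start and 2 CHR matches at 116 and 98. Cdk1 (chr10:69352913-69353162, minus strand) holds 3 CCAAT boxes at 208, 80 and 48 bases and 2 CHR matches at 71 and 15. Cdc6 (chr11:98907901-98908150, plus strand) holds 1 E2F match at 138 bases.
Mki67: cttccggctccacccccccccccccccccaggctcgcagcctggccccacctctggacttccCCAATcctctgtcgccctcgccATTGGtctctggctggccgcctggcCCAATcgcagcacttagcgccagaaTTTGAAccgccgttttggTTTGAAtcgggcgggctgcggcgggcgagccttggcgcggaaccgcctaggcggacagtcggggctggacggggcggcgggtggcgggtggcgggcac
Cdk1: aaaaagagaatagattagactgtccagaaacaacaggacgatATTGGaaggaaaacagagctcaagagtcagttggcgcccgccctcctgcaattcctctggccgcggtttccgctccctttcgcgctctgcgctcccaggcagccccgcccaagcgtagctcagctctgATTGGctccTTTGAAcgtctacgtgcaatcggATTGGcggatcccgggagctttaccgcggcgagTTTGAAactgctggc
Cdc6: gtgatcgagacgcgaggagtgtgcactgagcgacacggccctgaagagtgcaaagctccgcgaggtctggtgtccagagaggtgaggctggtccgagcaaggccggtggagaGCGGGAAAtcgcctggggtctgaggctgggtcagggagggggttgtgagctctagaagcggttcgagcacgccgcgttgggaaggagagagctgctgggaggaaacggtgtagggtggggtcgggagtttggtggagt

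A promoter entry was found for 11626 of the 14477 measured genes. Of the 24 mitotic genes with an entry, 18 (75.0%) held a CCAAT box against 35.6% of all measured genes, and 7 (29.2%) held a CHR match against 10.9%: Ccnb2, Cdc20, Cdk1, Kif11, Mki67, Ncapg and Top2a. Of 27 replication genes, 8 (29.6%) held the E2F motif against 6.72%, namely Cdc6, Mcm5, Mcm6, Mcm7, Orc1, Pola1, Rfc3 and Uhrf1. Of these 8, Mcm5, Mcm6, Mcm7 and Rfc3 were not 2-fold higher in both genotypes, so the motif and the call coincided only in part. A match is a string of letters and not a measured binding site.

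Among genes above the floor on all 4 arrays, the largest difference on the activated side was that of an inhibitor of division. Cdkn1a, which encodes the cyclin-dependent kinase inhibitor p21, read 8879 and 8979 in activated and 65.4 and 165.2 in memory cells, and was 136-fold and 54.4-fold higher, a log2 difference of 6.42 ± 0.36. Its limma adjusted p of 0.00204 was lost without the memory WT array, with a difference of 6.01. Bcat1, the cytosolic enzyme that breaks down branched-chain amino acids, read 6509.6 and 6295 in activated and 121.9 and 63.6 in memory cells. Ddias, an anti-apoptotic gene induced by DNA damage, was 46.6-fold and 32.7-fold higher. Other genes with large folds were Fap, a membrane serine protease (30.1-fold and 26.9-fold), the actin-binding calponin gene Cnn3 (42.3-fold and 23.5-fold), Lrr1 (62.0-fold and 21.0-fold), Pter (32.1-fold and 18.7-fold) and the spindle gene Psrc1 (33.9-fold and 17.0-fold). Genes below the floor on both memory arrays included Plk2, a polo-like kinase, which read 2238 and 2549 in activated and 30.7 and 24.5 in memory cells, and Perp, a membrane protein gene, which read 1608 and 2216 in activated and 47.5 and 5.8 in memory cells. Tal2, Adh4 and Spin4 read 1451 and 1353, 1270.1 and 1677 and 1378 and 1202 on the activated arrays, and at least 25.3-fold less on the memory arrays in each pair.

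Several genes of cysteine, serine and folate metabolism were higher in activated cells, and others of the same list were not. The list of amino acid transporters, serine, folate cycle and transsulfuration enzymes and of genes of the ATF4 stress response had 13 of 30 members higher and 2 lower, with a median log2 fold of 1.19; limma called 21 higher and 2 lower. Shmt1, a hydroxymethyltransferase that moves carbon from serine to folate, read 4505 and 3931 in activated and 248.8 and 264 in memory cells. Mthfd1, which interconverts the folate intermediates, was 10.7-fold and 10.0-fold higher, and the serine synthesis enzyme gene Psat1 8.16-fold and 5.97-fold. Asns, the asparagine synthetase, read 2348 and 1643 in activated and 210.1 and 234 in memory cells. Of the transporters, Slc7a1 for arginine was 5.38-fold and 4.51-fold higher and Slc7a5 for large neutral amino acids 4.91-fold and 5.97-fold, whereas Slc3a2, the partner chain of Slc7a5, read 3201 and 3783 in activated and 2592 and 2177 in memory cells. Cbs, which makes the substrate of Cth, stayed near the floor and read 46.9 and 61.4 in activated and 30.7 and 68.8 in memory cells. Atf4 itself was 2.13-fold and 2.33-fold higher. Ddit3, which encodes the stress factor CHOP, went the other way and read 171.4 and 229.1 in activated and 1360.3 and 1156 in memory cells, and Atf5 was 3.90-fold and 3.67-fold lower.

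The Asns promoter is printed because Asns is a known ATF4 target of this group. It lies at chr6:7693210-7693459 (GRCm38.p6, minus strand), and the capitals mark the match to TGATGNAA, an ATF4 core motif, that begins 23 bases before the start. Of 25 promoters of the list, 3 (12.0%) held this motif, those of Asns, Chac1 and Got1, against 2.10% of all measured genes.
Asns: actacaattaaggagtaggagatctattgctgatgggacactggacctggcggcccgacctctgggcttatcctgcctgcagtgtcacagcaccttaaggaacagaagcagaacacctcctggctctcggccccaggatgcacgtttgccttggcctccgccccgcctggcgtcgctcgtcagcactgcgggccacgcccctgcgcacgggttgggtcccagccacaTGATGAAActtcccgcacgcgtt

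Nucleotide synthesis and ribosome production shared the direction of the replication genes. Purine and pyrimidine enzymes had 12 of 19 members higher and 0 lower (median 1.56); limma called 17 higher and 0 lower. Ctps, which makes CTP, read 8164 and 7738 in activated and 673.2 and 820.4 in memory cells, and the pyrimidine gene Umps 4339 and 3749.7 against 402 and 651.5. Gart, which carries several steps of purine synthesis, was 6.33-fold and 6.54-fold higher, and Dut, which keeps uracil out of DNA, 10.4-fold and 4.22-fold with another of its probe sets pointing the other way. Impdh1 read 953.2 and 857.4 in activated and 1017 and 839 in memory cells, with no difference of that size.

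Ribosome biogenesis genes had 21 of 30 members higher and 0 lower, with a median of 1.73; limma called 27 higher and 0 lower. Nolc1, a nucleolar phosphoprotein, read 6513 and 7050.4 in activated and 938.4 and 1011 in memory cells and was 6.94-fold and 6.97-fold higher. Gnl3, which encodes nucleostemin, was 5.71-fold and 5.59-fold higher, Nop16 5.70-fold and 6.52-fold, and Utp20, a processome subunit, 5.53-fold and 7.82-fold. The RNA polymerase I subunit gene Polr1b was 4.95-fold and 4.55-fold higher. The abundant nucleolar gene Npm1 read 21152 and 22464 in activated and 21496 and 21616 in memory cells. Ncl read 18028 and 18674 against 12134 and 14430.0, so these bright members differed less than 2-fold in both pairs. The part of the narrower signal range of the activated arrays in this was not tested.

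Aminoacyl tRNA synthetases and translation factors had 17 of 24 members higher and 0 lower, with a median of 1.37; limma called 21 higher and 1 lower. Farsb, a chain of phenylalanyl tRNA synthetase, read 7174 and 7268 in activated and 1608 and 1976 in memory cells, and Rars, the arginyl enzyme, 9024 and 8388 against 2186 and 2356. The cap-binding factor gene Eif4e was 3.39-fold and 2.93-fold higher, and its inhibitor Eif4ebp1 2.41-fold and 3.41-fold. The members thus include both the factor and its inhibitor.

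Glycolysis genes were split. In this list 8 of 20 members were higher and 1 was lower, with a median of 0.63; limma called 9 higher and 3 lower. Slc16a1, a lactate transporter, read 9992 and 9839 in activated and 1131 and 1399 in memory cells. Hk2, the inducible hexokinase, was 7.16-fold and 4.44-fold higher, Tpi1 6.02-fold and 3.62-fold, and Pgd, of the pentose phosphate pathway, 5.88-fold and 5.77-fold. The glucose transporter gene Slc2a3 was the member lower in activated cells and read 2337 and 2336 in activated and 9794 and 8353 in memory cells, while Slc2a1 read 2186 and 2246 against 1724 and 1909.5. Ldha, lactate dehydrogenase A, read 21657 and 21808 against 11685 and 15591, a difference under 2-fold in both pairs.

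Many sterol synthesis genes were higher, and Srebf2, the factor that switches them on, was not. Of 22 genes of cholesterol and fatty acid synthesis, 10 were higher and 0 lower, with a median of 1.12 that was 0.61 with the mean of probe sets; limma called 15 higher and 2 lower. Idi1, an isomerase of the mevalonate pathway, read 11348 and 11508 in activated and 872.6 and 949.9 in memory cells, and Cyp51, a sterol demethylase, 5339 and 4184 against 477 and 516.1. Lss, which closes the sterol rings, was 11.0-fold and 6.85-fold higher, and Hmgcs1, at the entry of the pathway, 5.49-fold and 4.34-fold. Srebf2 read 734.4 and 489.7 in activated and 1111 and 1252 in memory cells, with another probe set pointing the other way. Of 17 promoters of this list 13 (76.5%) held a CCAAT box, against 35.6% of all measured genes.

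Mitochondrial genes were split between import and respiration. Genes of mitochondrial import, translation and chaperones had 11 of 23 members higher and 0 lower (median 1.10), among them the import gene Timm8a1 (6.32-fold and 4.70-fold), and the chaperonin gene Hspd1, which read 17571 and 18590.0 in activated and 4515 and 5234 in memory cells. Respiratory chain and ATP synthase genes had 1 of 24 members higher and 0 lower, with a median of 0.03; the member higher was Sdhd, of complex II, at 3.64-fold and 2.50-fold. Cox4i1, a subunit of cytochrome oxidase, read 9272 and 10085 in activated and 17681 and 20041 in memory cells.

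Chaperone and proteasome genes had members on both sides, with medians of 0.51 and 0.50. The chaperone median was 1.01 with quantile normalization and 0.22 with the mean of probe sets. Of 24 chaperone genes 7 were higher and 1 lower. The cytosolic chaperonin gene Cct8 read 12906 and 12970.0 in activated and 3314 and 3387 in memory cells, and the stress-inducible Hspa1b 509.9 and 1154 against 4993 and 11686, the only member lower. Of 24 proteasome genes 5 were higher and 4 lower, against 11.0% and 18.6% of all measured genes, so the share lower was not above that of all genes. The members lower included the immunoproteasome subunit genes Psmb10 (3.91-fold and 3.95-fold) and Psmb8 (3.20-fold and 3.40-fold) and the interferon-inducible activator gene Psme1 (2.13-fold and 2.02-fold); the constitutive subunit gene Psmb5 was 2.66-fold and 2.77-fold higher, and the nuclear activator gene Psme3 3.61-fold and 3.58-fold with another probe set opposite.

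**Figure D3:**
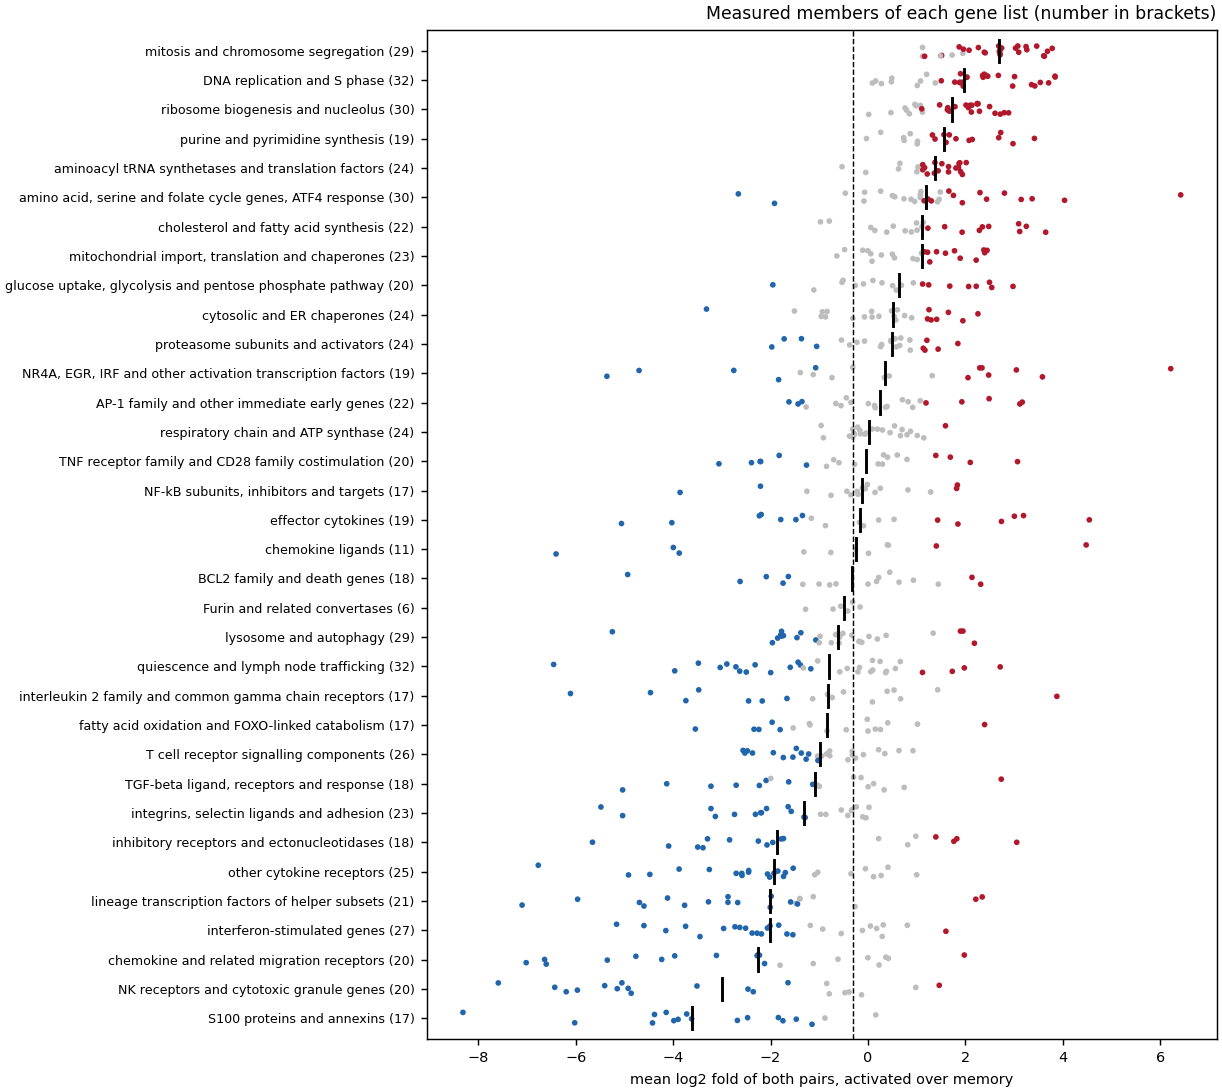
Each point is a measured member of 1 of 34 gene lists, placed by its log2 fold of activated over memory cells averaged over both genotypes; red and blue points passed 2-fold in both genotypes, black bars are list medians, and the dashed line is the median of all measured genes (-0.30). Medians run from 2.70 for mitosis to -3.62 for S100 proteins and annexins.

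Transcription factors induced by the T cell receptor had large folds in either direction. The list of NR4A, EGR, IRF and other activation factors had 7 of 19 members higher and 5 lower; its median of 0.34 was -0.23 in the Furin cKO pair alone. Nr4a2, an orphan nuclear receptor induced by antigen receptor signals, read 5032 and 6524 in activated and 124.5 and 43.1 in memory cells, with another probe set opposite. Its relative Nr4a3 read 9697 and 9791 against 929.9 and 711.2. Irf4, which scales with receptor signal strength, read 10011 and 9383 against 1318 and 1043, also with a probe set opposite, and Myc, the driver of growth, 4657 and 4957 against 952.8 and 780.0. Egr2 and Egr3 were 4.73-fold and 5.09-fold and 4.50-fold and 3.83-fold higher. The members lower in activated cells were Ikzf3, Prdm1, Nfil3, Batf3 and Batf. Prdm1, which encodes the effector factor BLIMP-1, read 26.4 and 18.5 in activated and 1166 and 1312 in memory cells, and Ikzf3, which encodes Aiolos, 145.7 and 133.8 against 5746 and 5729.

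AP-1 genes differed by member. Of 22 AP-1 and immediate early genes 5 were higher (Fosl1, Fosl2, Atf3, Maff and Rgs2, the last with a probe set opposite). Lower were 3 (Zfp36l2, Zfp36 and Btg2), and the median was 0.25. Of all measured genes 11.0% were higher and 18.6% lower, so the share lower was not above that of all genes. Fosl2 read 1103 and 914.4 in activated and 164 and 76.1 in memory cells, and Fosl1 was at least 8.07-fold and 9.35-fold higher. Zfp36l2, an RNA-binding protein that promotes mRNA decay, read 4084 and 3392 in activated and 13035 and 10069 in memory cells. Fos and Jun, which encode the classical AP-1 pair, differed most between the memory arrays. Fos read 1389 and 1246 in activated and 628 and 4469 in memory cells, and Jun 346.6 and 477.4 against 393.8 and 2441.

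Secreted factors were divided between the populations. Il2, the T cell growth factor, read 10455 and 12875 in activated and 424.2 and 1465 in memory cells and was 24.6-fold and 8.79-fold higher. Among 19 effector cytokine genes 6 were higher and 7 lower, with a median of -0.17 that was 0.06 over the 14 members above the floor on all 4 arrays. Tnfsf4, which encodes the OX40 ligand, read 1969.7 and 2136 in activated and 123 and 62.7 in memory cells; Lif was 10.5-fold and 7.96-fold higher, Tnfsf11, which encodes RANKL, 4.80-fold and 9.31-fold, and Il3 at least 5.57-fold and 11.6-fold. Tnf read 1369 and 1628 against 623 and 492. On the other side, Ltb, which encodes lymphotoxin beta, read 903.7 and 929.6 in activated and 32347 and 28958 in memory cells. Il4, the type 2 cytokine, was at least 29.6-fold and 8.98-fold lower, Il10 at least 5.05-fold and 4.13-fold and Tgfb1 6.08-fold and 3.62-fold. Ifng read 256.6 and 1695 in activated and 1114 and 4675 in memory cells, so that the activated Furin cKO array was above the memory WT array even though both pairs passed 2-fold, and the limma adjusted p was 0.121.

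Chemokine genes were similarly divided, with 2 of 11 higher and 3 lower, against 11.0% and 18.6% of all measured genes. Their median of -0.25 was 0.18 with quantile normalization. Ccl3 read 2649 and 5902 in activated and 107.5 and 291.6 in memory cells, and Ccl4 1284 and 2624 against 513.9 and 936.3. Ccl4 had a limma adjusted p of 0.0612 and was not called by the model. Ccl5, a chemokine of memory and effector T cells, read 186.9 and 455.3 in activated and 17869 and 34172 in memory cells and was 95.6-fold and 75.0-fold lower in activated cells. Cxcl10 was at least 13.7-fold and 15.7-fold lower, and Xcl1 at least 34.5-fold and 7.38-fold.

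Costimulatory and inhibitory receptors had members higher and members lower in activated cells. The list of TNF receptor and CD28 families and related costimulators also held other activation genes such as Tfrc and Cd69. Of its 20 measured genes 4 were higher (Tfrc, Cd80, Cd69 and Tnfrsf4) and 6 lower. The shares of all measured genes were 11.0% and 18.6%. The median of -0.03 turned positive with the higher floor (0.21), median centring (0.04) and the WT pair alone (0.06). Tfrc, the transferrin receptor of dividing cells, read 13913 and 13532 in activated and 1776 and 1501 in memory cells. Tnfrsf4, which encodes OX40, read 12954 and 13258 against 4403 and 5654 and the early activation gene Cd69 5934 and 6777 against 2195 and 1755. Cd27 read 522.9 and 623.8 in activated and 4278 and 2099.9 in memory cells. Of 18 inhibitory receptors and ectonucleotidases, 4 were higher (Cd200, Ctla4, Cd274 and Btla) and 11 lower. Their median was -1.87, but 0.82 over the 11 members above the floor on all 4 arrays, so its sign rests on members below the floor on an activated array. Ctla4 read 11925 and 10316 against 3339.9 and 2934, and Cd200 10457 and 9224 against 1571 and 888.5. Nt5e, which encodes CD73, was 64.8-fold and at least 39.2-fold lower, with another probe set opposite. Entpd1, which encodes CD39, was at least 12.2-fold and 10.4-fold lower.

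Il2ra, the high-affinity chain of the interleukin 2 receptor and a common activation marker, read 2320.5 and 2340.2 in activated and 1190.3 and 626.8 in memory cells, and was higher in activated cells by 1.95-fold and 3.73-fold, just short of 2-fold in the WT pair. Of 17 genes of the interleukin 2 family and its receptors, 1 (Il2) was higher and 7 were lower, with a median of -0.83. Il2rb, the chain shared with interleukin 15, read 508.4 and 389.1 in activated and 5515 and 4436 in memory cells. The feedback genes Socs3 and Socs2 were 16.3-fold and 30.0-fold and 6.52-fold and 4.59-fold lower, Socs2 with a probe set opposite, and the kinase gene Jak1 read 2301 and 2135 against 10700.0 and 9303.

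Most markers of B cells, plasma cells, myeloid cells and granulocytes were higher on the memory arrays and are given here because such cells also carry some of the memory-high genes below. The summed signal of 10 myeloid and dendritic cell markers was 1498 and 1487 in activated, 55060 and 28230 in memory and 7780 and 7492 in regulatory cells. H2-Aa, an MHC class II chain, read 27.3 and 40.4 in activated and 18042 and 9329 in memory cells, and Siglech, a marker of plasmacytoid dendritic cells, 5.8 and 4.5 against 2943 and 1111, whereas Itgam read 2.3 and 16.9 against 44.8 and 63.9. Of the 10 markers, 5 and 4 were above the floor on the activated arrays and 9 and 10 on the memory arrays. The 5 B cell markers summed to 135.4 and 134.6 against 2360 and 3657, and the 4 plasma cell markers to 436.7 and 366.9 against 3815 and 19010, of which Igha, the heavy chain of IgA, gave 2754 and 14980.0 on the memory arrays. The plasma cell marker Sdc1 went the other way and read 307.5 and 257.9 against 98.8 and 71.1, with another probe set opposite. The 7 granulocyte markers, of which 0 were above the floor on either activated array and 7 on each memory array, summed to 97.3 and 110.6 against 2139 and 7901, and the 3 NK cell markers to 186.4 and 203.7 against 339.7 and 369.0. The CD8 T cell genes Cd8a and Cd8b1 read 48.6 and 73.5 against 216.5 and 264.3 and 106.7 and 129.3 against 853.7 and 432.7, and the erythroid gene Alas2 1.1 and 4.7 against 471 and 110.5. In bulk samples fewer cells of a type and less RNA per cell cannot be told apart, and the part of these cells in the folds was not tested.

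**Figure D4:**
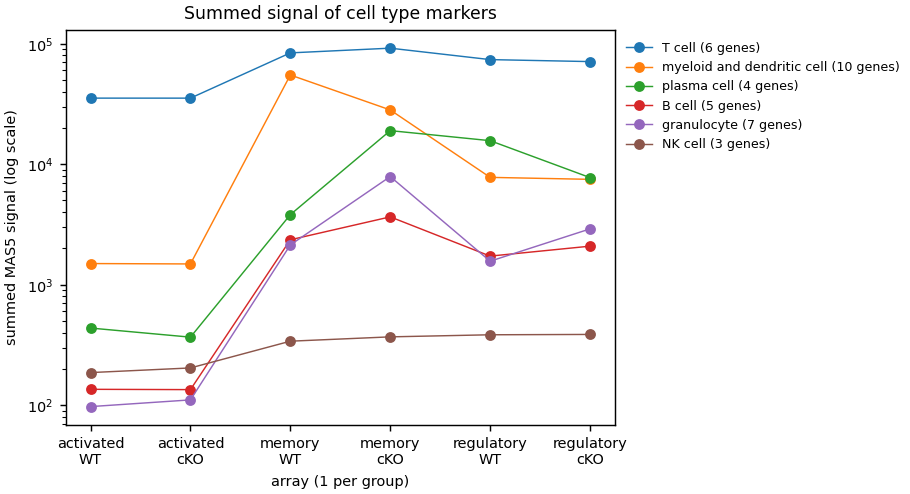
Summed MAS5 signal, on a log scale, of 6 sets of cell type markers on the 6 arrays; lines join the values of a set. All 6 sets are higher on both memory arrays than on either activated array. This holds for the T cell markers too, with 84010 and 91930 on the memory against 35380 and 35370 on the activated arrays.

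Most S100 proteins and annexins were lower in activated cells. Of 17 members, 15 were lower in activated cells and 0 higher, with a median log2 fold of -3.62, which was -2.44 in the WT pair and -2.47 over the 13 members above the floor on all 4 arrays; limma called 0 higher and 16 lower. S100a6 read 61.6 and 130.8 in activated and 4860.5 and 7003 in memory cells, and Crip1, a small LIM domain protein gene, 555.1 and 1083 against 13762 and 20125. Lgals3, which encodes galectin 3, was at least 19.5-fold and 22.4-fold lower and Ahnak, a large scaffold protein gene, 11.2-fold and 13.5-fold. Lgals1, which encodes galectin 1, read 5148 and 6739.9 in activated and 27993 and 50984 in memory cells. S100a8 and S100a9, granulocyte genes, were on the list too and read 3 and 3.3 against 258.6 and 2736 and 5.1 and 1.1 against 198.5 and 2868. Anxa5 read 3150.1 and 3289 against 3162 and 2623 and was 2-fold different in neither pair.

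The S100a4 promoter is shown because S100a4 marks the memory side of the contrast. It lies at chr3:90603520-90603769 (GRCm38.p6, plus strand), with a TATA box (TATAAA, in capitals) that begins 31 bases before the start. Of 14 promoters of this list 5 (35.7%) held a TATA box, against 7.66% of all measured genes.
S100a4: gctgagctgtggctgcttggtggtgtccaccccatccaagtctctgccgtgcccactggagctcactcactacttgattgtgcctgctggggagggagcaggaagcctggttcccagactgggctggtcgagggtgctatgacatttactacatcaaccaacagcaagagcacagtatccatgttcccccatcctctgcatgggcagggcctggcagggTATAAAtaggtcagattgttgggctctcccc

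Most chemokine and migration receptors were lower in activated cells. Of 20 members 12 were lower and 1 higher, with a median of -2.25; limma called 1 higher and 13 lower. Cxcr3, which leads type 1 cells to inflamed tissue, read 230.0 and 256.6 in activated and 21121 and 27796 in memory cells. Cxcr6, a receptor of liver and tissue memory cells, read 196.1 and 132 in activated and 16966 and 14481 in memory cells, and 294.9 and 409.5 on the regulatory arrays. Cxcr5, which guides cells into follicles, was 46.4-fold and 15.9-fold lower, Ccr2 at least 54.1-fold and 30.8-fold and Cxcr4 at least 18.8-fold and 18.9-fold. S1pr1, the receptor that lets T cells leave lymph nodes, read 86.2 and 91.3 in activated and 1346 and 1433 in memory cells. Ccr7, which brings naive cells into lymph nodes, was the member higher and read 6369.9 and 8502 against 2353 and 1482. Cx3cr1 read 28.2 and 30.3 in activated and 131.2 and 1290.4 in memory cells, with the memory arrays an order of magnitude apart.

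Integrins and adhesion genes had 13 of 23 members lower and 0 higher, with a median of -1.31. Over the 18 members above the floor on all 4 arrays the median was -0.92. Of all 23, limma called 0 higher and 15 lower. Itga4, the integrin alpha 4 chain, read 243.7 and 276.2 in activated and 11621 and 11586 in memory cells, and its partner Itgb7, of gut homing, 887.6 and 771.2 against 7042 and 7485. Itgae, which encodes CD103, was at least 48.0-fold and 22.5-fold lower. The LFA-1 chains Itgal and Itgb2 were 4.14-fold and 4.33-fold and 2.57-fold and 2.40-fold lower. Cd44, whose protein defined the sort together with CD62L, read 5916 and 7146 in activated and 9134 and 7404 in memory cells. It did not pass 2-fold in either pair.

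Transcription factors of helper lineages were mostly lower in activated cells, across lineages. Of 21 members 14 were lower and 2 higher, with a median of -2.01; limma called 2 higher and 16 lower. Maf, which drives interleukin 4, 10 and 21, read 20.5 and 16 in activated and 6188 and 6916 in memory cells, and Tox2, a factor of follicular helper cells, 86.1 and 66.4 against 4132 and 5374. Rora, of type 17 and innate-like cells, read 364.2 and 200.7 in activated and 3701 and 3652 in memory cells, and Gata3, of type 2 cells, 304.7 and 251.5 against 2640.2 and 1559. Zbtb16, which encodes the innate-like factor PLZF, read 24 and 12.1 against 821.5 and 148.4. Foxp3 and Ikzf2, of regulatory cells, were lower in activated cells by at least 28.5-fold and 23.4-fold and 16.2-fold and 18.6-fold. Tbx21, which encodes T-bet, read 1208 and 2140.0 in activated and 3616 and 3396 in memory cells and was not 2-fold lower in the Furin cKO pair. The factor Id2 read 546.7 and 738.4 in activated and 16360.0 and 14505 in memory cells and its relative Id3 6769.8 and 6568 against 1876 and 1099, in opposite directions. Zbtb32 was the other member higher, 4.59-fold and 5.63-fold, with a probe set opposite.

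NK receptors and cytotoxic granule genes were lower in activated cells in 13 of 20 and higher in 1, with a median of -2.99; limma called 2 higher and 14 lower. Over the 8 members above the floor on all 4 arrays the median was -0.66. Ctsw, a cathepsin of cytotoxic lymphocytes, read 13 and 74.5 in activated and 11175 and 11799 in memory cells, and Klrg1, a receptor of terminal effector cells, 37.6 and 80.0 against 3241 and 6319.5. Nkg7, a granule protein gene, read 1499 and 4776 in activated and 6636 and 10514 in memory cells. Gzma and Gzmk differed most between the memory arrays. Gzma read 15.9 and 15.7 in activated and 479.7 and 18470.0 in memory cells, and Gzmk 8 and 25.4 against 655.1 and 6215. Gzmb, which encodes granzyme B, read 674.8 and 1280.2 in activated and 653.2 and 2547 in memory cells and did not pass 2-fold in either pair. Serpinb9, the inhibitor of granzyme B, was 2.45-fold and 3.11-fold higher. Tyrobp and Fcer1g, signalling chains that myeloid cells also carry, read 6299 and 2679.9 and 2074 and 1373 on the memory arrays, on which the myeloid and dendritic markers were also high.

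Other cytokine receptors were lower in 17 of 25 and higher in 0, with a median of -1.93; limma called 1 higher and 18 lower. The interleukin 18 receptor chain gene Il18r1 read 127.8 and 99.7 in activated and 7743 and 19594 in memory cells, and its accessory chain gene Il18rap 89.8 and 124.9 against 2168 and 4719. Il10ra was at least 15.2-fold and 14.2-fold lower, the interferon-gamma receptor gene Ifngr1 4.13-fold and 7.22-fold, and Ifnar2 of the type I interferon receptor 6.48-fold and 5.60-fold. Tgfbr2, the TGF-beta receptor chain that binds ligand, read 1419 and 1451 in activated and 9381 and 9346 in memory cells. In the list of TGF-beta ligands, receptors and response genes, 8 of 18 were lower and 1, Rgs16, was higher with a probe set opposite, with a median of -1.08 (-0.65 over the 14 members above the floor on all 4 arrays). Smad3, which carries the TGF-beta signal, read 212.6 and 213.5 in activated and 4131 and 3379 in memory cells.

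Genes of quiescence held members on both sides. Of 32 members 14 were lower and 4 higher, against 18.6% and 11.0% of all measured genes, with a median of -0.81; limma called 4 higher and 16 lower. Klf2, a factor that maintains rest and drives S1pr1, read 61 and 54.6 in activated and 4249 and 6029 in memory cells. Tsc22d3, a glucocorticoid target, was 9.0-fold and 13.9-fold lower, Rbl2, a pocket protein that represses E2F, 10.0-fold and 6.72-fold, and Cdkn1b, which encodes the inhibitor p27, 4.60-fold and 8.37-fold. Txnip, which restrains glucose uptake, read 1732 and 1413 in activated and 7722 and 7873 in memory cells, and Foxo1 1068 and 876.3 against 4963 and 3006. The members higher were Bach2, Ccr7, Dapl1 and Klf4; Bach2, a repressor that holds back effector genes in naive cells, read 6158 and 6192 in activated and 1222 and 722.8 in memory cells. Lef1, a factor of naive cells, read 2791 and 2093 against 2959 and 2511, with a probe set opposite.

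Interferon-stimulated genes were lower in activated cells in 17 of 27 and higher in 1, with a median of -2.01; limma called 2 higher and 19 lower. Irf7, which amplifies the type I interferon response, read 72.3 and 49.9 in activated and 2529 and 1829 in memory cells. Ifit1 read 56.9 and 32.5 in activated and 1457 and 1093 in memory cells, Ifit3 59.7 and 38.4 against 930.2 and 963.8, and Mx1, an antiviral GTPase gene, 59 and 57.5 against 621.6 and 651.5. The member higher was Gbp2, a guanylate-binding protein gene, at 3.64-fold and 2.53-fold, while the related GTPase gene Igtp read 12883 and 15769 against 10766 and 12202 and Irf1 6464 and 6407 against 6746 and 7189.8. On the regulatory arrays, also from fresh cells, Ifit1 read 1569.5 and 1911.

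The promoter of Ifit1 is shown for its interferon-stimulated response elements. It lies at chr19:34640639-34640888 (GRCm38.p6, plus strand), and the capitals mark 2 matches to the element (ISRE, GAAANNGAAA on either strand), which begin 104 and 85 bases before the start. Of 21 promoters of the list, 13 (61.9%) held this motif against 2.61% of all measured genes, 2.07% of genes higher and 3.40% of genes lower in activated cells.
Ifit1: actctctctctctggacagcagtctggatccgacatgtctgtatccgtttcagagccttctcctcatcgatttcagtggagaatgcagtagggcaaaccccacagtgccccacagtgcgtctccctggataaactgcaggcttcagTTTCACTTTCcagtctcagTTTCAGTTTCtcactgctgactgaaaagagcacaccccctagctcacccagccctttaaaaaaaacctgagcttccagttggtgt

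Signalling components of the T cell receptor were lower in activated cells in 12 of 26 and higher in 0, with a median of -0.99; limma called 1 higher and 17 lower. The CD3 chain genes Cd3e, Cd3d and Cd3g were 5.45-fold and 6.43-fold, 4.72-fold and 5.67-fold and 3.63-fold and 4.07-fold lower, and Cd3d read 6932 and 6852 in activated and 32691 and 38862 in memory cells. The kinase gene Zap70 read 4032 and 3440.5 against 5169.6 and 4178, and the adaptor gene Lcp2 8011 and 8821 against 8988 and 8940.2. Ptprc, which encodes CD45, read 18522 and 18542 in activated and 54940.0 and 41709 in memory cells.

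Survival, lysosome and catabolic genes had smaller medians. Of 18 BCL2 family and death genes 2 were higher and 5 lower (median -0.33), against 11.0% and 18.6% of all measured genes. The share higher was thus near that of all genes. Bcl2 read 769.2 and 686.5 in activated and 2335 and 2179.5 in memory cells and Bcl2l1, which encodes BCL-XL, 5859.7 and 5798 against 1278 and 1376, so these anti-apoptotic genes stood in opposite directions. Bcl2l11 was 6.22-fold and 3.98-fold higher, but 4 of its 5 measured probe sets pointed the other way. Of 29 lysosome and autophagy genes 10 were lower and 3 higher (median -0.61), against 18.6% and 11.0% of all measured genes. Ctsh read 3.1 and 17.1 in activated and 2843 and 1152 in memory cells and is also a myeloid gene, and Sqstm1, an autophagy receptor gene, read 1083 and 1182 against 3730.4 and 4488. Among 17 genes of fatty acid oxidation and FOXO-linked catabolism 5 were lower and 1 higher (median -0.84, and -0.43 over the 14 above the floor on all 4 arrays), with Sesn3 at 1285 and 1185 against 6576 and 5933 and the fatty acid carrier gene Fabp5 at 10416 and 11758 against 1636 and 2703. Of 17 NF-kB genes 2 were higher (Rel and Nfkb2) and 2 lower (Bcl3 and Map3k14), shares near or under those of all genes. The median of -0.12 was 0.10 in the Furin cKO pair alone. None of the 6 convertases, Furin included, passed 2-fold in both genotypes, and their median of -0.49 was 0.17 with quantile normalization.

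Of the genes lower in activated cells, the largest folds above the floor on all 4 arrays included those of Plac8, Dtx1 and Ifi209, beside Il7r, Cxcr3, Cxcr6, Ccl5, Klf2 and Il18r1 described above. Plac8, a small cysteine-rich protein gene, read 60.8 and 88.8 in activated and 7247 and 24720.0 in memory cells. Dtx1, a ubiquitin ligase gene of the Notch pathway, read 154.1 and 112.5 in activated and 10665 and 5827 in memory cells, and Ifi209, an interferon-inducible gene, 152.7 and 118.5 against 8687 and 8189.8. Among genes below the floor on both activated arrays, Asb2, a ubiquitin ligase adaptor gene, read 30.4 and 28.4 in activated and 5970.0 and 5468 in memory cells, and Ifit1bl1, of the IFIT family, 23 and 44.8 against 4835 and 7975.

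Promoters differed in their content of CpG dinucleotides, counted in the 250 bases before the start of 11626 genes. In 4 equal classes by CpG count, from the fewest to the most, 5.33%, 12.0%, 14.1% and 13.5% of genes were higher in activated cells, and 20.4%, 18.5%, 17.8% and 17.1% were lower. The median count was 17 in genes higher, and 14 both in genes lower and in all measured genes. The ETS motif (CCGGAAG) stood in 17.7% of promoters of genes higher, 10.0% of genes lower and 12.3% of all measured genes. A CCAAT box stood in 42.5%, 33.3% and 35.6%, and the E2F motif in 9.41%, 6.01% and 6.72%. The CpG count and the mean signal of a gene were not separated here.

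**Figure D5:**
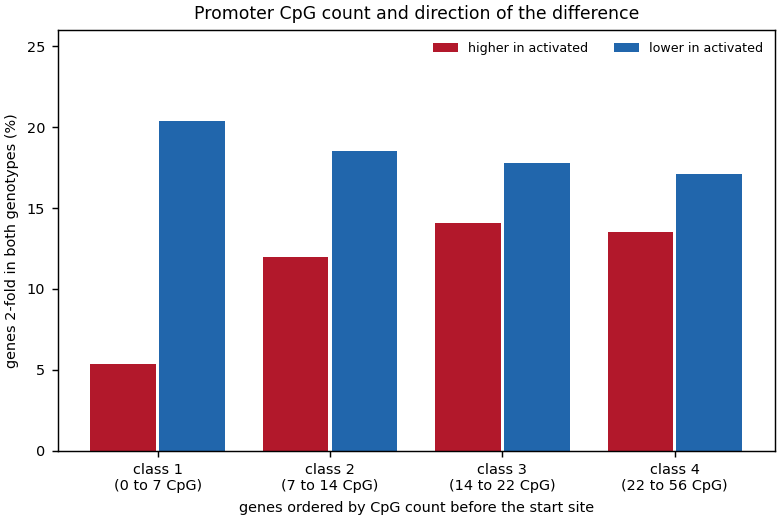
Percent of genes at least 2-fold higher (red) or lower (blue) in activated cells in both genotypes, in 4 equal classes by the CpG count in the 250 bases before the start; genes with the same count can fall in neighbouring classes. The share of genes higher is 5.33% in the class with the fewest CpG and 12.0% to 14.1% in the others, while the share lower goes from 20.4% to 17.1%.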

How the data were processed

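Signals were read from the authors' deposited MAS5 table, in which each array's signal intensity is on a linear scale with a trimmed mean of 500; MAS5 is named per the submitters' processing notes, with no version named there. Per the labels' protocols, total RNA was labelled and hybridised by the manufacturer's procedure. The annotation table gave 34945 of 45101 probe sets 1 gene symbol, 932 several and 9160 none, and probe sets with several or none were not used; 34741 were matched to current symbols by Entrez ID. Some genes were not analysed here. Signals were floored at 47.6 and taken to log2. limma 3.58.1 (R 4.3.3) was fitted with population and genotype on 6 arrays, leaving 2 residual degrees of freedom, with Benjamini-Hochberg adjustment over 15811 genes, and its code was tested on simulated data. With 1 array a group, the number of arrays limits precision. Values of list members below the floor entered medians at the floor. Named genes are the marker genes and Furin, the 10 largest folds above the floor in either direction and the 6 largest bounds in either direction, at most 5 members of a list in its main direction and 2 in the other, those 2-fold in opposite directions, and members named for their role, which were chosen after their values were seen. The members and lists were chosen with earlier results of these data known. Promoters came from RefSeq (GRCm38.p6), the first entry for each gene. Alternatives changed the floor, the scaling, the probe set rule, the model and the arrays included.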

Additional observations from a re-analysis of the deposited data

Results flagged for a closer look

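In 6 genes the WT and the Furin cKO pair went at least 2-fold in opposite directions, and the difference between the pairs was not tested, since each population and genotype has 1 array. Fos, an AP-1 gene, had log2 folds of 1.14 and -1.84, with signals of 1389 and 1246 in activated and 628 and 4469 in memory cells. Gfra2, a receptor for neurturin, had log2 folds of at least 1.18 and -1.28, with 108 and 114.7 against 30.0 and 278.2. Cdkn3, a phosphatase gene of the cell cycle, had log2 folds of 1.11 and -1.56, with 223.6 and 244.3 against 103.8 and 720.1. Tfeb, a factor that controls lysosome genes, had -1.62 and at least 1.66, with 122.6 and 150.5 against 376.6 and 37.4. Ppp2r3d, a phosphatase subunit gene, had -1.60 and at least 1.68, with 122.8 and 152.4 against 373.1 and 27.4. Camta1, a transcription activator gene, had -1.77 and 1.23, with 82.9 and 213.2 against 281.9 and 91.2. Gfra2, Tfeb and Ppp2r3d were below the floor on 1 memory array, and the fold of that pair is a bound. In Fos, Gfra2, Cdkn3, Tfeb and Ppp2r3d the activated arrays lay closer together than the memory arrays.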

How the results depend on the processing

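The number of genes at least 2-fold lower in both genotypes was 2692; a floor at the 20th percentile gave 4143, and quantile normalization gave 1788. Leaving out 1 of the 4 arrays in turn gave 455 to 1249 genes higher and 922 to 2085 lower by limma. The genotype term is the only pairing of the arrays, because the labels carry no replicate numbers; without this replicate block limma called 2836 genes higher and 4360 lower. Some list medians changed sign: that of activation factors was -0.23 in the Furin cKO pair alone (0.16 in the WT pair), that of chemokines 0.18 and that of convertases 0.17 with quantile normalization, that of NF-kB genes 0.10 in the Furin cKO pair alone (-0.40 in the WT pair), and that of costimulators 0.21 with the floor at the 60th percentile, 0.04 with median centring and 0.06 in the WT pair alone (-0.21 in the Furin cKO pair). The median ran over the alternatives from 0.58 to 1.02 for glycolysis (reported as 0.63), 0.06 to 0.57 for AP-1 genes (0.25), -0.87 to 0.00 for effector cytokines (-0.17), -3.28 to -1.22 for chemokine receptors (-2.25), -2.19 to -1.25 for interferon-stimulated genes (-2.01), -2.46 to -0.50 for inhibitory receptors (-1.87), -0.43 to -0.19 for BCL2 genes (-0.33) and -0.92 to -0.35 for fatty acid oxidation genes (-0.84). Single genes turned too: Ppp2r3d to -1.57 without the memory Furin cKO array (1.64 without the memory WT array), Eif5a to 0.95 and 0.60 with quantile normalization and the mean of probe sets, and Tomm20 to 0.59, Cxcl16 to 0.07 and Nfkbia to 0.98 with quantile normalization. The cause was not tested. Of 275 named genes, 248 were called by limma, and 94, 70, 88 and 86 of these calls were lost without the activated WT, activated Furin cKO, memory WT and memory Furin cKO array.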

Other observations

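Of the gene groups assembled after the values had been seen, whose counts therefore carry no weight as evidence, targets of p53 held several of the largest folds. These were the folds of Cdkn1a, Plk2, Perp and Ddias, described above. Of 24 measured targets 12 were at least 2-fold higher in activated cells in both genotypes and 3 lower, with a median log2 fold of 1.39. Zmat3, an RNA-binding target that restrains growth, read 4887 and 4762 in activated and 929.1 and 645.7 in memory cells. Aen, an exonuclease gene, read 6619 and 6038 against 597.7 and 777.2, and Phlda3, an inhibitor of AKT, 1616 and 1904 against 348.3 and 344.7. Mdm2, which degrades p53, read 2631 and 2635 in activated and 1016 and 1109 in memory cells. The DNA repair genes Ddb2 and Xpc were lower and read 725.9 and 668.2 against 1619 and 1625 and 286.8 and 371 against 889 and 793.8. Btg2 was the other member lower and read 1716 and 1431 against 4885 and 3291. Bbc3, Pmaip1, Sesn1, Trp53inp1 and Rrm2b were among the members that did not pass 2-fold in both genotypes.

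Chromatin maintenance and nuclear transport genes were also described. Of 19 measured genes of DNA methylation and chromatin maintenance 10 were higher and 1 lower (median 1.33). Hells, a remodeller that supports DNA methylation, read 6888 and 6184 in activated and 474.6 and 928 in memory cells, and Ezh2, the methyltransferase of the Polycomb complex, 10797 and 10557 against 2106 and 2715. Tet3, which oxidises methylated cytosine, was the member lower and read 45.9 and 56.1 against 225.7 and 166.7. Its signal was below the floor on the activated WT array, and its limma adjusted p was 0.0597, so the model did not call it. Of 21 measured nuclear pore and transport genes 15 were higher and 0 lower (median 1.67). The importin gene Kpna2 read 13680.0 and 14818 in activated and 1978 and 3462 in memory cells, the pore gene Nup107 4817 and 4027 against 719.4 and 675 and the tRNA exporter gene Xpot 7313 and 6981 against 1753 and 1669.7.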
